A study of Mus musculus with 14 samples.

Results

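The genes of the TET pathway for DNA demethylation, 7 in all, were followed through mTOR inhibition of mouse embryonic stem (ES) cells. They are the 3 Tet genes (Tet1, Tet2 and Tet3), the DNA glycosylase gene Tdg, the sugar transferase gene Ogt, and Cxxc4 and Cxxc5, which encode CXXC zinc finger proteins. The members were taken by gene name, and each of the 7 matched 1 of the 54446 gene identifiers in the files. All cells were E14, a mouse ES cell line, grown on medium with serum and LIF and no feeders. The wild-type line (WT) was sampled untreated (0 h) and after 24, 72 and 144 h of the mTOR inhibitor INK128 (spelled Ink128 in the labels; mTORi). The line labelled TET1/2 DKO (DKO) was sampled at 0, 24 and 72 h of the same treatment. Each of the 7 groups held 2 libraries, 14 in all, of ribosomal RNA-depleted total RNA from sorted cells. The DKO line came from clones of single sorted cells after cutting with Cas9 guides to exons 4 and 13 of Tet1 and exons 3 and 12 of Tet2. A difference between the lines therefore cannot be told apart from a difference between clones.

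TET enzymes oxidize methylated cytosine in DNA step by step to hydroxymethyl-, formyl- and carboxylcytosine. TDG cuts out the formyl and carboxyl forms, and base excision repair then restores an unmodified cytosine. OGT attaches N-acetylglucosamine to proteins and binds TET proteins, and CXXC4 (also called IDAX) and CXXC5 carry a zinc finger that binds unmethylated CG dinucleotides and have been tied to control of TET2. In mouse ES cells Tet1 and Tet2 are the main Tet genes, while Tet3 is known chiefly from the oocyte and from differentiating cells.

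The stretches before the RefSeq starts of the 3 Tet genes and of Tdg are shown with their CG dinucleotides in capitals, since CG is the site that these enzymes act on and that CXXC fingers bind. The sequences are from RefSeq on GRCm38.p6 and run 5′ to 3′ on the gene's strand. Each is the unbroken run without exon bases of the same gene that lies nearest the RefSeq start, within the 250 bases before it. The RefSeq starts of Tet1 and Tet3 lie 21672 and 17406 bases inside the genes as the files span them, so these windows stand before internal starts, whereas those of Tet2 and Tdg lie 749 and 10 bases from the gene's 5′ end. The Tet1 stretch is chr10:62887325-62887412 (minus strand), that of Tet2 chr3:133544391-133544640 (minus), that of Tet3 chr6:83441679-83441928 (minus) and that of Tdg chr10:82629588-82629827 (plus).
Tet1: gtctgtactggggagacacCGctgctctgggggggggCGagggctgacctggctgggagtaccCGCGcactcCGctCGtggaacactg
Tet2: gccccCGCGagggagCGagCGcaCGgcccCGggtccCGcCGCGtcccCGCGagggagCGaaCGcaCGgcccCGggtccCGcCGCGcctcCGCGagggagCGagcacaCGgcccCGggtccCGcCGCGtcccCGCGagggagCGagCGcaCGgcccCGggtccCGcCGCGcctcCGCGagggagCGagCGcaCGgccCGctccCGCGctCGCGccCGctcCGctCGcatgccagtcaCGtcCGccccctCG
Tet3: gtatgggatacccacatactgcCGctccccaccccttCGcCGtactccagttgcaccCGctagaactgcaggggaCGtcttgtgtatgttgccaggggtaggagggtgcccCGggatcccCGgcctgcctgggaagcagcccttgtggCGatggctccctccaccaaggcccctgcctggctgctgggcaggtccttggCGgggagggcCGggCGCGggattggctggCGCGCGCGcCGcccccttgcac
Tdg: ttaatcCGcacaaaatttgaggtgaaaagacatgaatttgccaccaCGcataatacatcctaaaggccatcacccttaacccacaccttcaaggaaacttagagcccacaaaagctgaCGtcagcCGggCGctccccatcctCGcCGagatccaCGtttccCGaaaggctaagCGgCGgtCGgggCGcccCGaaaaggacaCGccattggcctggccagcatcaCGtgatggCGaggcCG

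The full 250 bases before the Tet2 start held 51 CG, more than 99.9% of 32544 such windows in the RefSeq table, where the median was 6. The windows of Tet1, Tet3 and Tdg held 15, 17 and 19 CG. The Tdg window held 1 CACGTG, a palindrome that reads the same on both strands, which began 28 bases before the start. This motif was in 6.03% of all windows and in none of the other member windows searched, those of Tet1, Tet2, Tet3, Ogt and Cxxc4. Cxxc5 was not searched.

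On mm10, Tet1 lies at chr10:62804570-62908996 (minus strand), Tet2 at chr3:133463679-133545139 (minus), Tet3 at chr6:83362373-83459084 (minus), Tdg at chr10:82629828-82650799 (plus), Ogt at chrX:101640060-101684351 (plus), Cxxc4 at chr3:134236484-134262161 (plus) and Cxxc5 at chr18:35829818-35861687 (plus). Within the Tet1 gene and on its strand lie Gm26479 and Gm48353, at up to 9.37 and 19.1 TPM, whose reads the counting could share with Tet1. The other genes that overlap members on either strand were each under 1 TPM in all 14 libraries.

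Levels are given as TPM, which are per length of transcript and sum to 1000000 in every library, and they do not give the sequencing depth. The libraries held 28306 to 29927 genes above 0, and the 10 highest genes took 16.3 to 26.5% of the TPM. All 7 ES cell markers examined (Pou5f1, Sox2, Nanog, Zfp42, Esrrb, Dppa5a and Tdgf1) were over 1 TPM in every group, with sums of 4298 to 6939 TPM. The 6 primitive endoderm markers (Gata4, Gata6, Sox17, Pdgfra, Foxa2 and Dab2) summed to 11.9 to 39.95 TPM at WT 0 h, 97.4 to 174 TPM at WT 24 h, 12.5 to 39.1 TPM at DKO 0 h and 29.0 to 67.4 TPM at DKO 24 h. The 4 neural progenitor markers went from 14.7 to 17.4 TPM at WT 0 h to 6.82 to 8.24 TPM at 24 h, and from 11.4 to 13.5 TPM to 5.38 to 6.44 TPM in DKO. The 5 fibroblast markers went from 5.71 to 8.23 TPM to 1.28 to 2.83 TPM in WT, and from 10.5 to 17.7 TPM to 2.68 to 7.39 TPM in DKO. The part of these markers in the 24 h results below was not tested. A limma fit of log2(TPM + 1) gave the tests. It took in the 15878 genes that averaged 1 TPM or more, and a gene was called at a Benjamini-Hochberg adjusted p under 0.05. All log2 changes are on that scale, which understates the change of low genes. The labels give the libraries of a group only replicate numbers, so the p-values measure the spread between these libraries.

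The RNA of a fixed number of sorted cells was also spiked with ERCC RNAs, synthetic transcripts that allow levels to be set per cell rather than per total RNA. On this spike-in scale the median change of all genes tested was -0.34, -0.35 and -0.88 log2 at 24, 72 and 144 h in WT, and -0.51 and -0.15 at 24 and 72 h in DKO. The deposited TPM gave medians of -0.0012, 0.04 and 0.06 in WT and 0.0028 and 0.13 in DKO. A gene can therefore rise as a share of the RNA while its level per spike-in falls, and the changes with time below are given with their spike-in values. In bulk samples, fewer cells of a type and less RNA per cell cannot be told apart.

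At 0 h in WT the members spanned a wide range. Tet1 was highest at 194 ± 4.43 TPM (SD, n = 2), followed by Tet2 at 97.8 ± 2.62, Ogt at 84.6 ± 3.85, Tdg at 40.9 ± 1.48, Cxxc5 at 24.0 ± 3.39 and Tet3 at 6.43 ± 0.554 TPM. No neighbours in this order overlapped between their libraries. Over all 14 libraries the mean of Tet1 was above that of 96.9% of the genes tested, and that of Tet3 above 41.4%. Cxxc4 lay between 0.00805 and 0.392 TPM in the 14 libraries. It was below the 1 TPM mean, so 6 of the 7 members were tested.

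**Figure D1:**
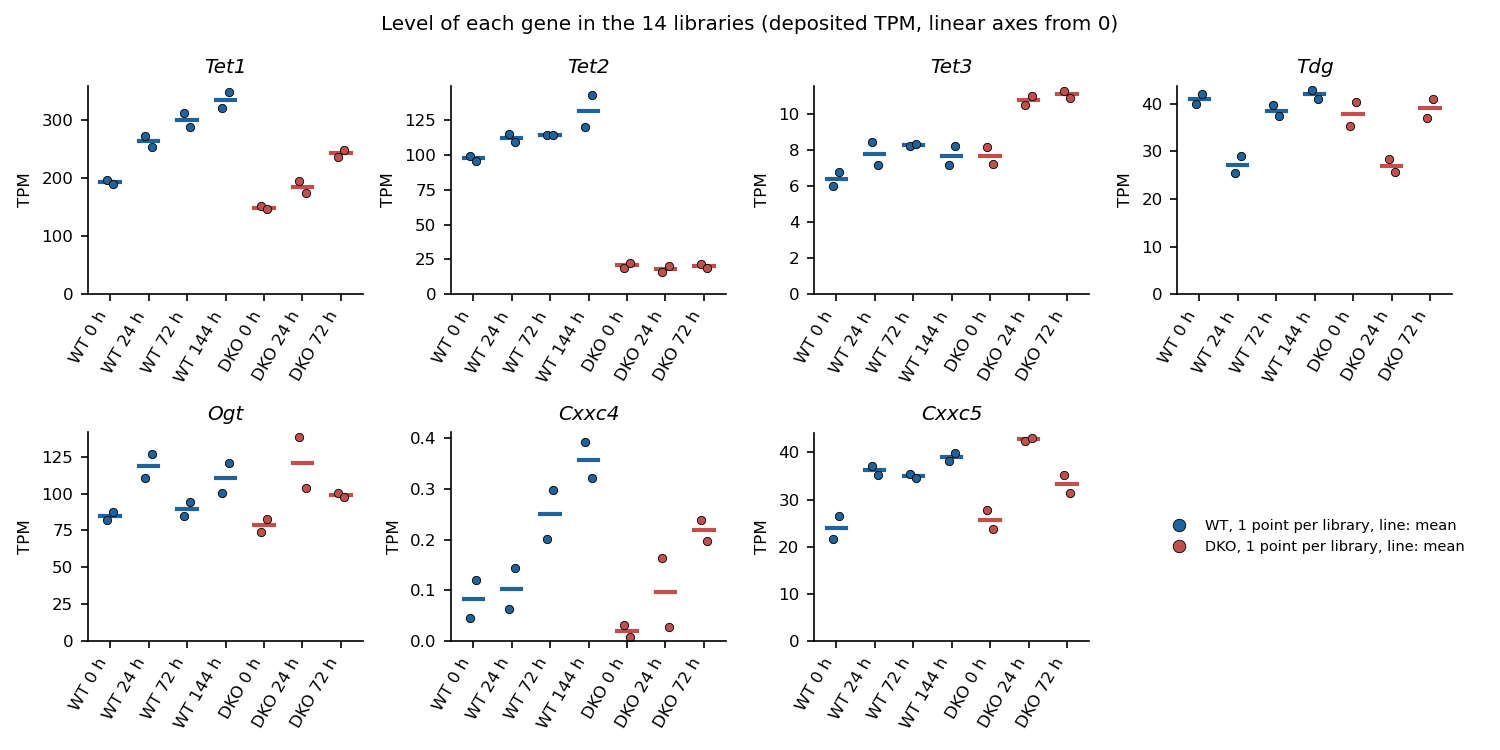
Level of each gene in every library, in deposited TPM on linear axes that start at 0, with 1 point per library and a line at the group mean (blue WT, red DKO). Tet1 climbs with time in both lines, Tet2 stays at 15.9 to 22.2 TPM in every DKO library, and Tdg dips at 24 h in both lines. On the spike-in scale the Tet1 mean at WT 144 h and at DKO 24 h lies below that of 0 h. There the Tdg mean at WT 144 h (43.4 TPM) is below that at WT 24 h (45.1 TPM).

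Tet1 had the highest transcript level of the 3 dioxygenase genes here and encodes a protein with its own CXXC finger. Its WT libraries held 197 and 191 TPM at 0 h, 274 and 255 at 24 h, 313 and 289 at 72 h, with 321 and 349 at 144 h. Its DKO libraries held 152 and 147, 195 and 176, and 238 and 248 TPM at 0, 24 and 72 h. Each later group lay above its own 0 h group with no overlap on the deposited scale, and WT 0 h and DKO 24 h were the only neighbours in the order of the 7 groups that overlapped. As a share of the RNA Tet1 rose by 0.44 ± 0.09 log2 (SE) at 24 h, 0.63 ± 0.09 at 72 h and 0.79 ± 0.09 at 144 h in WT, whereas on the spike-in scale the values were 0.07, 0.20 and -0.24 and none was called. The adjusted p (limma, Benjamini-Hochberg) were 0.0033, 0.00086 and 0.00027 on the deposited scale, and 0.897, 0.692 and 0.479 on the spike-in scale. In DKO it rose by 0.31 at 24 h (adjusted p = 0.022) and 0.70 at 72 h (adjusted p = 0.00064), against -0.26 and 0.40 on the spike-in scale, where neither was called. The DKO 24 h spike-in value rests on replicate 2, since spike-in scaled Tet1 was 427 and 349 TPM at DKO 0 h and 437 and 238 at 24 h, which overlapped, and the spike-in factors of the 24 h libraries were 2.24 and 1.36. The DKO change at 24 h lost its call without DKO 0 h replicate 1 (0.33, adjusted p = 0.059) or 2 (0.29, adjusted p = 0.105) or DKO 24 h replicate 1 (0.23, adjusted p = 0.137). Spike-in scaled Tet1 was 416 and 403 TPM at WT 0 h and 344 and 349 at WT 144 h, which did not overlap.

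Tet2 encodes a dioxygenase without a CXXC finger of its own. In WT it was at 99.7 and 96.0 TPM at 0 h, 115 and 109.5 at 24 h, 114 and 114 at 72 h, with 120 and 143 at 144 h. Every treated WT library was above both 0 h libraries on the deposited scale, but the 24 h and 72 h groups overlapped. Spike-in scaled Tet2 went the other way, from 210 and 203 TPM at 0 h to 165 and 203 at 24 h, 189 and 170 at 72 h, with 129 and 143 at 144 h, and there the 72 h and 144 h groups lay below both 0 h libraries. The changes at 24 and 72 h were -0.17 and -0.20 log2 on that scale and not called. Only the 144 h change passed the test on the deposited scale, at 0.42 ± 0.13 log2 (adjusted p = 0.031), and on the spike-in scale the value was -0.60 (adjusted p = 0.075), which was called with replicates paired within the line (adjusted p = 0.018). Without WT 144 h replicate 2 the deposited change was 0.30 (adjusted p = 0.219), and without WT 0 h replicate 1 or 2 the adjusted p was 0.087 or 0.118. Tet2 in DKO is given with the comparison of the lines.

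Tet3, the lowest of the 3, was at 6.04 and 6.82 TPM at WT 0 h, 8.48 and 7.16 at 24 h, 8.25 and 8.36 at 72 h, with 7.20 and 8.22 at 144 h. None of the WT changes was called in the unpaired fit on either scale, with deposited values of 0.25, 0.33 and 0.23 log2 and spike-in values of -0.09, -0.05 and -0.70. Spike-in scaled Tet3 was 12.7 and 14.4 TPM at WT 0 h and 7.70 and 8.22 at 144 h, which did not overlap, and with replicates paired this fall was called (adjusted p = 0.0070), as was that from 72 to 144 h (-0.65, adjusted p = 0.038). In DKO it was at 8.18 and 7.23 TPM at 0 h, 10.5 and 11.02 at 24 h, then 11.3 and 10.9 at 72 h. The DKO groups at 24 and 72 h overlapped each other and lay above the DKO 0 h group on the deposited scale. It rose in DKO as a share of the RNA by 0.44 ± 0.12 log2 at 24 h (adjusted p = 0.022) and 0.48 ± 0.12 at 72 h (adjusted p = 0.016), whereas the spike-in values were -0.08 and 0.21 and were not called. Spike-in scaled Tet3 was 23.0 and 17.2 TPM at DKO 0 h and 23.6 and 15.0 at 24 h, so there too only replicate 2 was lower. Without DKO 0 h replicate 2, neither change passed (0.36 and 0.40, adjusted p = 0.13 and 0.101). The 24 h call was also lost without DKO 24 h replicate 1 (0.47, adjusted p = 0.060) or 2 (0.41, adjusted p = 0.081), and the 72 h call without DKO 72 h replicate 1 (0.45, adjusted p = 0.091) or 2 (0.50, adjusted p = 0.064).

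Tdg, the glycosylase that acts after the TET enzymes, moved the other way at 24 h. It held 39.9 and 42.0 TPM at WT 0 h and 25.4 and 29.0 at 24 h, then 39.7 and 37.3 at 72 h, with 42.8 and 41.0 at 144 h. In DKO it held 35.2 and 40.4, 28.3 and 25.7, and 37.1 and 41.0 TPM at 0, 24 and 72 h. In both lines the 24 h libraries were below all libraries of the other times on the deposited scale. Spike-in scaled, the WT libraries of 24 h (36.4 and 53.8 TPM) overlapped those of 144 h (45.8 and 41.0 TPM). Tdg fell at 24 h by 0.57 log2 in WT (adjusted p = 0.0022) and by 0.47 in DKO (adjusted p = 0.0075). It also fell on the spike-in scale, by 0.95 in WT (adjusted p = 0.047) and 1.04 in DKO (adjusted p = 0.020). From 24 to 72 h it rose by 0.49 ± 0.10 in WT (adjusted p = 0.015) and 0.51 ± 0.10 in DKO (adjusted p = 0.019) on the deposited scale. The same steps on the spike-in scale were 0.44 and 0.78 and were not called, though with replicates paired that in DKO was (adjusted p = 0.028). The deposited WT step lost its call without WT 24 h replicate 1 or WT 72 h replicate 1 (0.40 and 0.45, adjusted p = 0.084 and 0.106), and the DKO step without DKO 24 h replicate 2 or DKO 72 h replicate 1 or 2 (0.45, 0.59 and 0.44, adjusted p = 0.095, 0.062 and 0.16). At 144 h the deposited change from 0 h was 0.03 log2 and not called, whereas on the spike-in scale Tdg fell by 0.98 log2 (adjusted p = 0.011), beside a median of -0.88 over all genes. The Tdg fall in DKO at 24 h lost its call without DKO 0 h replicate 2, at -0.37 (adjusted p = 0.062).

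Ogt encodes the only enzyme that adds O-linked N-acetylglucosamine to nuclear and cytosolic proteins. It was at 81.9 and 87.3 TPM at WT 0 h, 111 and 127 at 24 h, 85.2 and 94.4 at 72 h, with 101 and 121 at 144 h. In DKO it was at 74.3 and 82.6, 138 and 104, and 100.2 and 97.6 TPM at 0, 24 and 72 h. The 24 h group was the highest mean in both lines, and at 72 h the WT libraries overlapped those of 0 h. As a share of the RNA Ogt rose at 24 h by 0.48 ± 0.14 log2 in WT (adjusted p = 0.024) and 0.61 ± 0.14 in DKO (adjusted p = 0.010), while the spike-in values were 0.12 and 0.04 and were not called. The WT change lost its call without WT 0 h replicate 1 or 2 or WT 24 h replicate 2 (0.44, 0.53 and 0.38, adjusted p = 0.105, 0.062 and 0.146), and the DKO change without DKO 0 h replicate 1 or DKO 24 h replicate 1 (0.53 and 0.40, adjusted p = 0.062 and 0.071). With replicates paired within each line, Ogt was also higher at WT 144 h than at 0 h (0.38, adjusted p = 0.032) and lower at WT 72 h than at 24 h (-0.40, adjusted p = 0.044), against -0.64 and -0.46 on the spike-in scale. The paired fit on that scale called the 144 h value as a fall (adjusted p = 0.018), opposite in sign to the deposited call, and not the step.

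Cxxc5 was at 21.6 and 26.4 TPM at WT 0 h, 37.1 and 35.3 at 24 h, 35.5 and 34.5 at 72 h, with 38.1 and 39.9 at 144 h. In DKO it was at 27.7 and 23.7, 42.5 and 43.2, and 35.3 and 31.4 TPM at 0, 24 and 72 h. All treated libraries were above all untreated libraries of both lines on the deposited scale. As a share of the RNA it rose by 0.58, 0.53 and 0.68 log2 in WT and by 0.72 and 0.36 in DKO, each with an SE of 0.11, whereas the spike-in values were 0.22, 0.12, -0.31, 0.17 and 0.07. The adjusted p were 0.0032, 0.0065, 0.0018, 0.0013 and 0.034 on the deposited scale, and no spike-in value was called. The WT 72 h call was lost without WT 0 h replicate 1 (0.39, adjusted p = 0.0504), and the DKO 72 h call without DKO 0 h replicate 2 (0.25, adjusted p = 0.207) or DKO 72 h replicate 1 or 2 (0.28 and 0.45, adjusted p = 0.205 and 0.059). Its relative Cxxc4 was at 0.0453 and 0.120 TPM at WT 0 h and 0.392 and 0.322 at 144 h, and at 0.0304 and 0.00805 at DKO 0 h and 0.239 and 0.197 at 72 h. These levels are all under 1 TPM, and their changes with time were not tested.

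**Figure D2:**
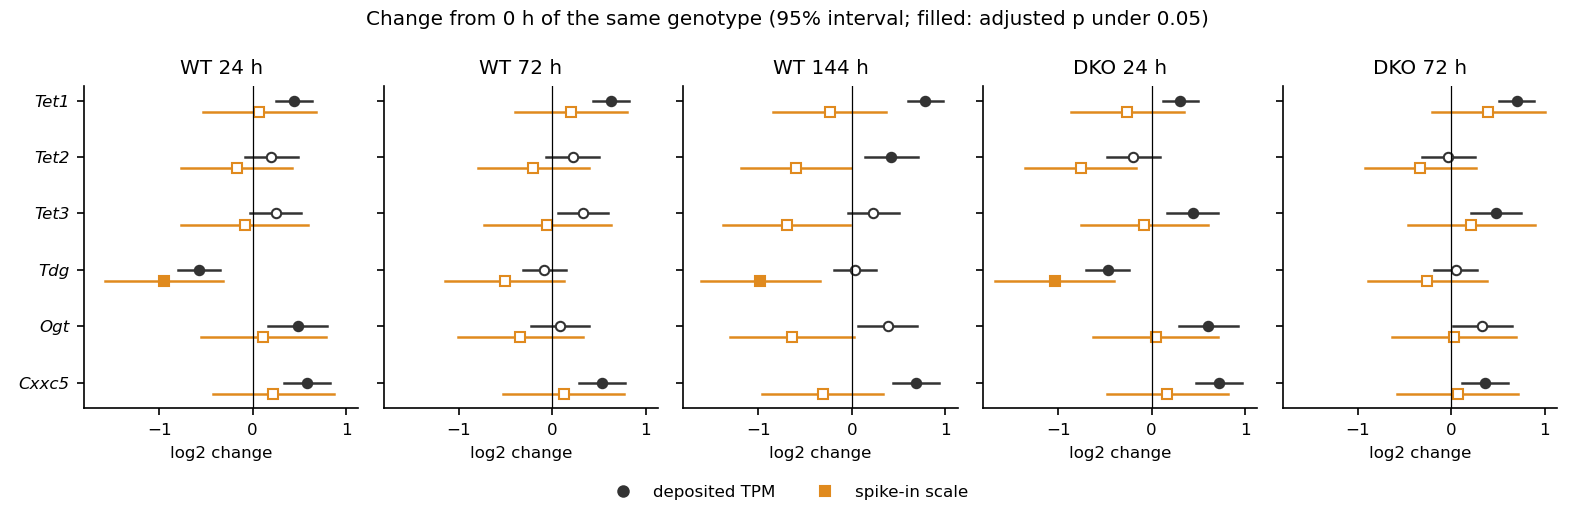
Change of the 6 tested genes from 0 h of the same line, as the log2 difference with its 95% interval, on the deposited TPM (black circles) and on the spike-in scale (orange squares), filled where the adjusted p was under 0.05. Tet1 and Cxxc5 sit right of 0 in all 5 panels on the deposited TPM, but left of 0 at WT 144 h on the spike-in scale (-0.24 and -0.31), as does Tet1 at DKO 24 h (-0.26). Tdg at 24 h sits left of 0 on both scales.

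Counted together, 4 of the 6 tested members were called at WT 24 h against 0 h, where 33.3% of all genes tested were called. At WT 72 h 2 were called (27.2% of all genes), and at WT 144 h 3 were called (30.1%). In DKO 5 were called at 24 h (28.2%) and 3 at 72 h (28.9%). Of the steps between treated times, 1 member was called at WT 72 h against 24 h (12.6%), 0 at WT 144 h against 72 h (0.428%) and 2 at DKO 72 h against 24 h (6.98%), Tdg and Tet1. The Tet1 step was 0.39 log2, and on the spike-in scale 0.65, called there only with replicates paired (adjusted p = 0.046). It was not called without DKO 24 h replicate 2 or DKO 72 h replicate 1 or 2 (0.31, 0.42 and 0.36, adjusted p = 0.126, 0.096 and 0.179). Among all genes the WT 144 h against 72 h step had 1719 at an unadjusted p under 0.05. On the spike-in scale 1 member, Tdg, was called at WT 24 h (11.4% of all genes), WT 144 h (56.7%) and DKO 24 h (22.3%), and 0 at WT 72 h (9.47%) and DKO 72 h (3.76%). None was called there in the step from 24 to 72 h of WT (1.23%) or DKO (1.49%), or in that from 72 to 144 h of WT (0.542%). With replicates paired the spike-in count at WT 144 h was 4, all falls (Tet2, Tet3, Tdg and Ogt), where 72.7% of all genes were called.

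The DKO line was compared with WT at the same times. Tet2, one of the targeted genes, was at 19.1 and 22.2 TPM at 0 h, 15.9 and 20.0 at 24 h, then 21.7 and 18.7 at 72 h of DKO. These are 21.1, 16.0 and 17.7% of the WT means, and the highest DKO library (22.2 TPM) was below the lowest WT library (96.0 TPM at 0 h). Tet2 was lower by 2.19 ± 0.13, 2.59 ± 0.13 and 2.45 ± 0.13 log2 at 0, 24 and 72 h (adjusted p = 0.00010, 2.0e-05 and 3.5e-05), and on the spike-in scale by 1.93, 2.52 and 2.06, called at each time. No DKO change of Tet2 with time was called on either scale. With replicates paired, the spike-in value at DKO 24 h against 0 h was -0.76 (adjusted p = 0.0076).

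Tet1, the other targeted gene, was at 77.0, 70.2 and 80.8% of the WT mean in DKO at 0, 24 and 72 h. Every DKO library of a time was below both WT libraries of that time on the deposited scale. The differences were -0.38, -0.51 and -0.31 log2 with an SE of 0.09, of which that at 24 h was called (adjusted p = 0.023). Their spike-in values were -0.08, -0.42 and 0.11, and none was called. Leaving out any 1 of the 4 libraries at 24 h gave -0.43 to -0.59 (adjusted p of 0.061 to 0.10). A summed gene level does not check the edit where most of the transcript can remain. The paper reports a PCR screen of the clones and western blots for TET1 and TET2 as its checks of the knockout. RNA left at Tet1 in this line is no measure of TET1 protein. The whole exons between the cut ones, 5 to 12 of Tet1, make up 7.79% of the 14369 bases of transcript ENSMUST00000174189, and exons 4 to 11 of Tet2 make up 12.7% of the 9021 bases of ENSMUST00000196398. With the cut exons included the shares are 84.6 and 96.5%. Reads by exon were not analysed here.

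Tet3, which was not targeted, was above WT in DKO. Its DKO mean was 120, 138 and 134% of the WT mean at 0, 24 and 72 h, and in each time both DKO libraries were above both WT libraries on both scales. No single time was called (0.23, 0.42 and 0.38 log2, adjusted p of 0.415, 0.119 and 0.099). Over the mean of the 3 times Tet3 was higher in DKO by 0.34 ± 0.07 log2 (adjusted p = 0.0085), and by 0.61 ± 0.19 on the spike-in scale (adjusted p = 0.041). The medians over all genes were 0.05 on the deposited and 0.30 on the spike-in scale. Over the same mean Tet1 was lower by 0.40 ± 0.05 (adjusted p = 0.00093) on the deposited scale and at -0.13 on the spike-in scale (adjusted p = 0.565), and Tet2 was lower by 2.41 ± 0.07 (adjusted p = 1.6e-07), or at -2.17 on the spike-in scale. A two-sided exact permutation test with labels permuted within each time gave p = 0.0093 for Tet1, Tet2 and Tet3 in turn, the smallest that the design allows. This test, like the limma fit, takes the libraries of different times as separate, although the times of a replicate were processed together. With the 2 replicate sets of a line permuted whole, an alternative chosen after seeing the data, the exact p was 0.333 for each of the 3 genes, the smallest that 2 sets a line can give. The same exact test on the spike-in scale gave 0.0093 for Tet2 and Tet3 and 0.528 for Tet1.

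Tdg, Ogt and Cxxc5 did not pass any test of DKO against WT. Their differences over the mean of the 3 times were -0.04 (95% interval -0.17 to 0.10), 0.02 (-0.17 to 0.20) and 0.09 log2 (-0.05 to 0.23) on the deposited scale. Their spike-in values were 0.23, 0.28 and 0.35, beside a median of 0.30 over all genes. The exact permutation p were 0.556, 0.861 and 0.269 on the deposited scale. Cxxc4, at the low levels given above, had 0.306 in the same exact test.

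**Figure D3:**
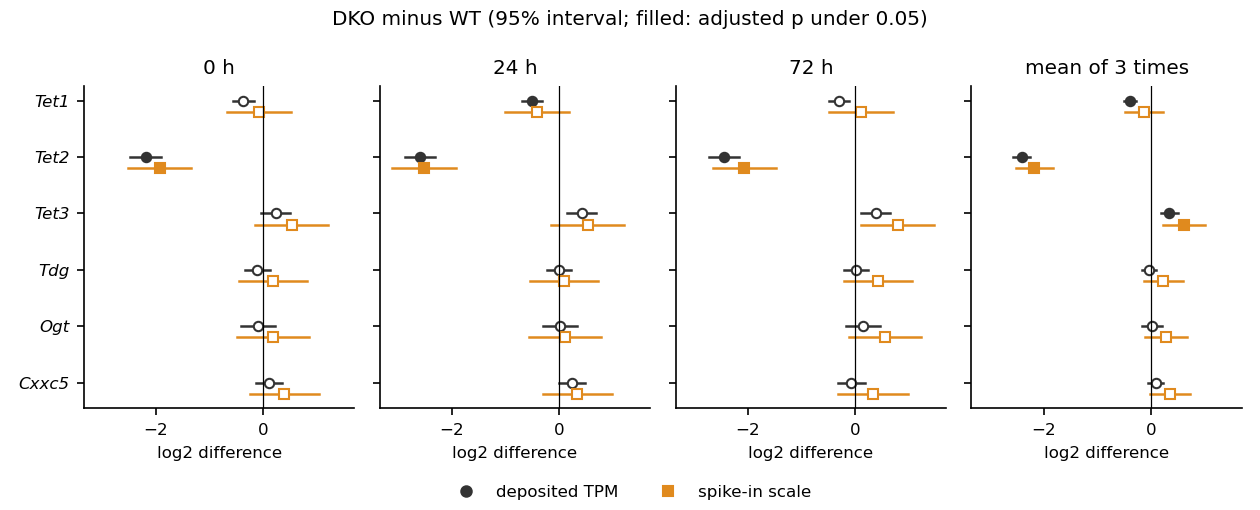
Difference of DKO from WT at 0, 24 and 72 h and over the mean of these times, as log2 with its 95% interval, on the deposited TPM (black circles) and the spike-in scale (orange squares), filled where the adjusted p was under 0.05. Tet2 sits at -1.93 or lower in every panel on both scales. Tet3 sits right of 0 in every panel on both scales, and Tet1 left of 0 except at 72 h on the spike-in scale (0.11).

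Of the 6 tested members, 1 was called between the lines at 0 h (0.812% of all genes), 2 at 24 h (1.74%), 1 at 72 h (5.21%) and 3 over the mean (19.6%). The calls at single times were Tet2 at each time and Tet1 at 24 h, both targeted genes. Those over the mean were Tet1, Tet2 and Tet3, of which only Tet3 was not targeted. The counts are therefore no measure of the pathway as a whole. The spike-in counts were 1 at 0 h (0.0441%), 1 at 24 h (0.0693%), 1 at 72 h (0.523%) and 2 over the mean (10.5%). All 6 DKO libraries were above all 6 WT libraries of these times for 0 of 6 members and 1.75% of all genes, and below them for Tet2, as for 0.794% of all genes. The test of whether the response to mTORi differed between the lines called 0 members and 0 genes of 15878 with limma at 24 h and at 72 h, with 620 and 577 genes at an unadjusted p under 0.05. The same test on the spike-in scale called 1 gene at 24 h (0.0063%), no member, and 0 at 72 h. For Tet2 the response in DKO minus that in WT was -0.40 log2 (95% interval -0.80 to 0.0050) at 24 h and -0.25 (-0.65 to 0.15) at 72 h. For Tet1 it was -0.13 (-0.40 to 0.13) and 0.07 (-0.20 to 0.34), and for Tdg 0.11 (-0.22 to 0.43) and 0.13 (-0.19 to 0.46). On the spike-in scale these differences were -0.59 and -0.13 for Tet2, -0.33 and 0.19 for Tet1, and -0.09 and 0.25 for Tdg. None was called on either scale.

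The 3 Tet genes summed to 298 ± 6.49 TPM at WT 0 h (SD, n = 2) and to 475 ± 36.9 at WT 144 h, whereas the spike-in scaled sum went from 630 ± 13.7 to 491 ± 14.6. In DKO the sum was 178 ± 1.98 and 274 ± 4.98 TPM at 0 and 72 h, and 461 ± 60.4 and 583 ± 146 when spike-in scaled. Shares and ratios within a library do not depend on its scaling. Tet1 made up 65.1 and 65.0% of the sum in the WT 0 h libraries, 68.9 and 68.6% at 24 h, 71.9 and 70.2% at 72 h, then 71.6 and 69.8% at 144 h. The Tet2 share was 32.9 and 32.7% at WT 0 h and 26.8 and 28.6% at 144 h. All 6 treated WT libraries thus held a larger Tet1 share and a smaller Tet2 share than both untreated ones, and the 72 h and 144 h groups overlapped. The Tet3 share was 1.99 and 2.32% at WT 0 h and 1.60 and 1.64% at 144 h.

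In DKO Tet1 made up 84.7 and 83.3% of the sum at 0 h, 88.1 and 84.99% at 24 h, then 87.8 and 89.3% at 72 h. The Tet2 share was 10.7 and 12.6% at DKO 0 h, 7.17 and 9.68% at 24 h, then 8.02 and 6.72% at 72 h. The Tet3 share was 4.57 and 4.10%, 4.75 and 5.33%, and 4.18 and 3.93% at these times. Averaged over 0, 24 and 72 h, DKO differed from WT by 18.1 percentage points for Tet1, -20.5 for Tet2 and 2.43 for Tet3, each with a two-sided exact permutation p of 0.0093 over libraries and 0.333 over replicate sets, both the smallest possible. Tet2 is a targeted gene of this line, and a fall of its share raises the others by construction. These are therefore not 3 separate results, and they add none to the lower Tet2 level given above.

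**Figure D4:**
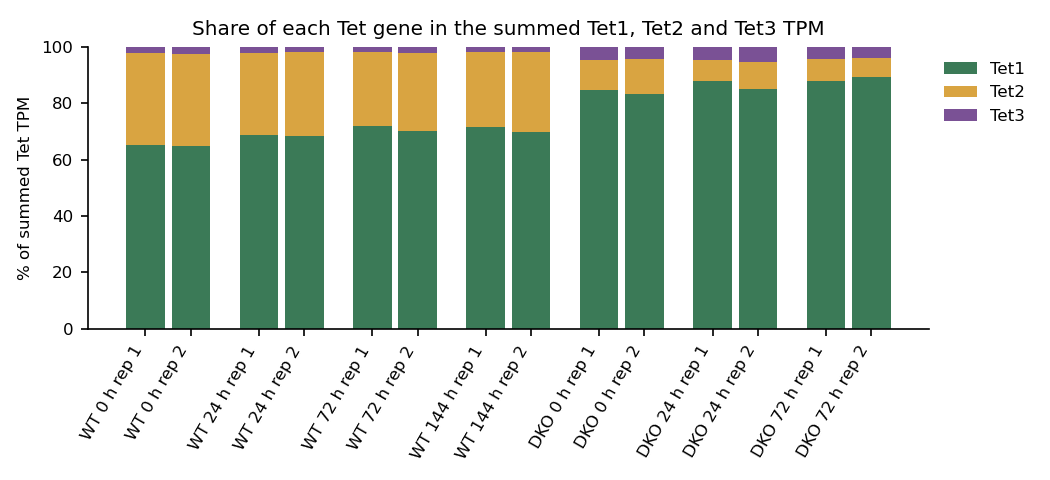
Share of Tet1, Tet2 and Tet3 in their summed TPM, in %, with 1 stacked bar per library. The Tet2 segment takes 26.2 to 32.9% in the WT bars and 6.72 to 12.6% in the DKO bars.

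Tet1 was 4.94 and 4.55 times Tdg at WT 0 h and 10.8 and 8.78 times at 24 h, then 7.88 and 7.73 times at 72 h and 7.50 and 8.52 times at 144 h. In DKO the ratio was 4.31 and 3.64, 6.89 and 6.84, and 6.41 and 6.06 at 0, 24 and 72 h. The Tet1 level thus stood higher against that of Tdg in all 10 treated libraries than in the 4 untreated ones. In the DKO libraries among them it is the level of a targeted gene. Tet1 was 1.98 and 1.99 times Tet2 at WT 0 h and 2.67 and 2.44 times at 144 h. Ogt stood at 0.415 and 0.457 of Tet1 at WT 0 h, 0.404 and 0.499 at 24 h, 0.272 and 0.327 at 72 h, with 0.314 and 0.346 at 144 h. In DKO it stood at 0.489 and 0.562, 0.709 and 0.590, and 0.422 and 0.393 of Tet1 at 0, 24 and 72 h. The 24 h libraries lay above those of 0 h in DKO and overlapped them in WT, and the later groups lay below 0 h in both lines.

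**Figure D5:**
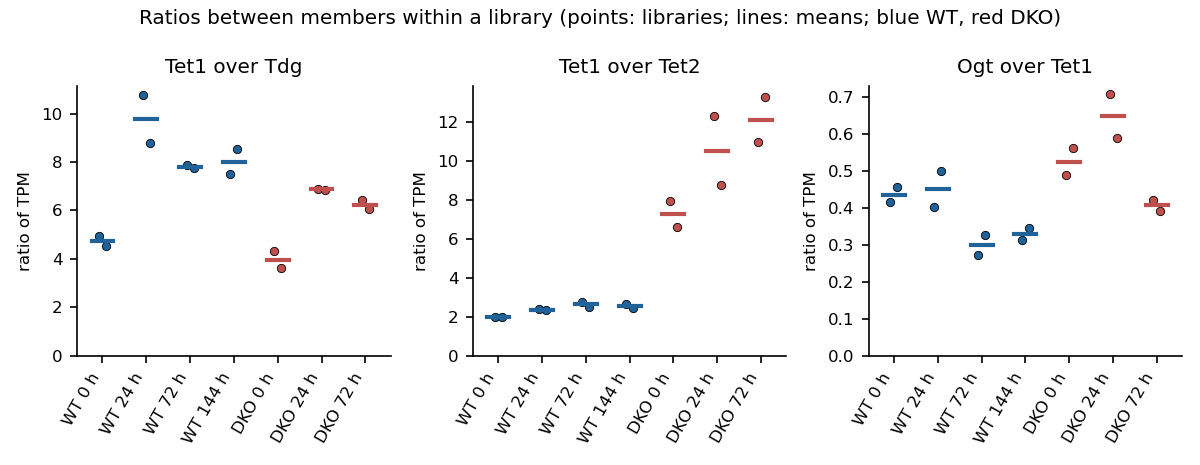
Ratios of TPM between members within each library, with 1 point per library and lines at the means (blue WT, red DKO) on linear axes from 0. The Tet1 over Tdg ratio lies at 3.64 to 4.94 in the untreated libraries and at 6.06 to 10.8 in the treated ones.

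Further genes of the pathway were taken as 4 lists, and all of their genes passed the filter. They are described mainly at WT 144 h against 0 h and in DKO against WT over the mean of the 3 times. Among 14 base excision repair genes that act beside or after TDG, 2 rose and 1 fell at WT 144 h on the deposited scale, with a median change of -0.10 against 0.06 over all genes (17.4% of all genes rose and 12.7% fell). Neil2 and Neil3, glycosylases for oxidized bases, rose from 1.69 ± 0.520 to 8.65 ± 0.0526 TPM and from 3.41 ± 0.689 to 9.18 ± 1.44 TPM (SD, n = 2), by 1.85 and 1.21 log2, with spike-in values of 1.14 (called, adjusted p = 0.034) and 0.36 (not called). Apex1, the main endonuclease at abasic sites, fell from 138 ± 4.55 to 90.6 ± 6.71 TPM, by 0.61 log2, and by 1.63 on the spike-in scale. On that scale 1 gene of this list rose and 11 fell (0.523 and 56.2% of all genes). Over the mean of the 3 times, 3 were higher and 1 lower in DKO, Neil2 by 0.70 and Neil3 by 0.49 among the higher (spike-in 1.03 and 0.78, both called, adjusted p = 0.016 and 0.024) and Xrcc1, a repair scaffold, lower by 0.27 (spike-in -0.01). Of all genes 13.3% were higher and 6.38% lower in that comparison.

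Of 7 genes for O-GlcNAc cycling beside Ogt, 1 rose and 0 fell at WT 144 h, with a median of -0.02, where 17.4% of all genes rose and 12.7% fell. The spike-in scale had 0 that rose and 6 that fell, with a median of -1.04 (0.523 and 56.2% of all genes). The gene that rose was Mgea5, which encodes the enzyme that removes O-GlcNAc. It went from 58.1 ± 1.33 to 83.7 ± 3.93 TPM, by 0.52 log2 (adjusted p = 0.0013, limma), against -0.50 on the spike-in scale. At WT 24 h 0 of these genes rose and 1 fell, with a median of -0.32 (17.6 and 15.7% of all genes). At WT 72 h 0 rose and 1 fell, with a median of -0.13 (14.4 and 12.8% of all genes). With replicates paired, 1 rose and 3 fell at WT 24 h (21.5 and 19.5% of all genes). A difference between the times was not tested. The gene that fell at WT 24 h in the unpaired fit was Gfpt2. It encodes a form of the enzyme at the entry of the hexosamine pathway and was named after its values were seen. It fell at 24 h by 1.44 log2 in WT (adjusted p = 0.00037, limma) and by 1.23 in DKO (adjusted p = 0.0011), and on the spike-in scale by 1.82 and 1.81 (adjusted p = 0.0018 and 0.0011). Mgea5 was also higher in DKO over the mean of the 3 times, by 0.37 log2 (adjusted p = 0.00092) and by 0.64 on the spike-in scale (adjusted p = 0.026), the only one of the list called there, where 13.3% of all genes were higher and 6.38% lower (9.93 and 0.561% on the spike-in scale).

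Of 13 genes whose proteins are known to bind TET proteins or to act on them, 2 rose and 1 fell at WT 144 h, with a median of 0.08 (17.4 and 12.7% of all genes). The spike-in counts were 0 and 10, with a median of -0.94 (0.523 and 56.2% of all genes). Nanog, a pluripotency factor that binds TET1, fell from 333 ± 15.5 to 218 ± 16.9 TPM, by 0.61 log2 and by 1.63 on the spike-in scale. Cul4a, a ubiquitin ligase subunit, and Sin3a, a corepressor, rose by 0.49 and 0.41 as a share of the RNA but stood at -0.51 and -0.61 on the spike-in scale. In DKO over the mean of the 3 times, Lin28a, an RNA-binding protein, was lower by 0.42 and Uhrf2, a reader of hydroxymethylcytosine, higher by 0.24, with spike-in values of -0.15 and 0.51 that were not called. These were the 1 lower and the 1 higher of the 13 genes. Of all genes 13.3% were higher and 6.38% lower in that comparison (9.93 and 0.561% on the spike-in scale).

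Of 8 other genes with a CXXC finger, 4 rose and 0 fell at WT 144 h, with a median of 0.31 log2 (17.4 and 12.7% of all genes), whereas on the spike-in scale 0 rose and 4 fell, with a median of -0.71 (0.523 and 56.2% of all genes). Kmt2a, a histone H3 lysine methyltransferase, went from 22.6 ± 0.367 to 35.8 ± 2.36 TPM, by 0.64 log2, Kdm2a, a histone demethylase, by 0.39, and Mbd1, a methyl-CpG binding protein, by 0.39, against -0.36, -0.62 and -0.59 on the spike-in scale. In DKO over the mean of the 3 times 1 gene, Kmt2b, was lower by 0.19 and on the spike-in scale at 0.07, beside 13.3% of all genes that were higher and 6.38% lower.

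The pattern of each tested member over the 14 libraries was set against 8768 genes averaging 10 TPM or more, as Pearson's r of log2(TPM + 1), which is a description only since the libraries share groups. The genes most like Tet1 were Tsc22d2 (r = 0.964) and Derl3 (0.954), and those most like Tet2 were Pgrmc2 (0.959) and Spink1 (0.952). For Tet3 they were Ddx4 (0.948) and Khdrbs1 (0.936). For Tdg they were Tlcd1 (0.955) and Rrp1b (0.954), for Ogt Trp53rka (0.929) and Crbn (0.919), and for Cxxc5 Map3k1 (0.952) and Nlrp12 (0.945).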

How the data were processed

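RNA-seq libraries of 14 samples were used. Per the submitters' processing notes, the authors trimmed reads with cutadapt 2.4, aligned them with STAR 2.7.3a to mm10 and quantified genes with StringTie 2.0 (the methods name other releases of the last 2), and deposited TPM per gene. The deposited TPM, summed per gene identifier, were tested as log2(TPM + 1) with limma 3.58.1 in R 4.3.3, with all 7 groups in 1 fit, a mean-variance trend and Benjamini-Hochberg adjustment, over genes averaging 1 TPM or more. A count test needs counts, which were not used here, and TPM do not give the depth, so its precision is unknown from these values. The fit was tested on simulated data. For the spike-in scale, each library was multiplied by 1 factor, the median ratio of the study's spike-in normalized table (its first entries only) to the deposited TPM, from 1 to 2.81 over the libraries. Exact tests used Python 3.11.15 and scipy 1.17.1.

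Per the study's reporting summary, the times of 1 replicate were processed in parallel. Replicate differences correlated at 0.247 to 0.405 between times within DKO, and at 0.068 to 0.461 within WT. Between the lines they ran from -0.553 to 0.144, so values of this size do not by themselves show that replicates are paired. A fit with replicates paired within a line was added to the unpaired one, whose calls are those printed unless pairing is named. The members and gene lists were chosen with earlier results of these data known. Beyond the members, the text names for each member the 2 genes most like it, and per list up to 3 genes with the largest change among those called at WT 144 h against 0 h and in DKO against WT over the mean of the times (Gfpt2 was added after its values were seen). Alternatives are given in the closing section. Transcript exons are from GENCODE VM21, in which 6 of the 7 members have the coordinates of the files.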

Additional observations from a re-analysis of the deposited data

How the results depend on the processing

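The counts of called members depended most on the scale. On the spike-in scale (limma, adjusted p under 0.05) 1 was called at WT 24 h against 0 h, 0 at WT 72 h, 1 at WT 144 h, 1 at DKO 24 h and 0 at DKO 72 h, 0 in the WT and 0 in the DKO step from 24 to 72 h, and 1 for DKO against WT at 24 h. With the replicate block within each line added to that scale, an alternative chosen after seeing the data, 1 was called at WT 24 h (33.2% of all genes), 0 at WT 72 h (31.8%), 4 at WT 144 h (72.7%; Tet2, Tet3, Tdg and Ogt, all lower), 2 at DKO 24 h (44.7%), 0 at DKO 72 h (19.7%), 0 in the WT step from 24 to 72 h (7.77%) and 1 from 72 to 144 h (27.8%), and 2 in the DKO step from 24 to 72 h (15.2%). Of the changes called on the deposited TPM, directions turned on the spike-in scale, with and without the block, for Tet1 (-0.24), Tet2 (-0.60) and Cxxc5 (-0.31) at WT 144 h and for Tet1 (-0.26) and Tet3 (-0.08) at DKO 24 h, where only replicate 2 was lower than at 0 h. Of these only Tet2 was called, and only with the block (adjusted p = 0.018). Changes that were not called turned too, among them Tet3 (-0.70), Tdg (-0.98) and Ogt (-0.64) at WT 144 h and Tet2 at WT 24 h (-0.17) and 72 h (-0.20). The scales differ by 1 factor per library, which by construction turns such signs. The replicate block on the deposited TPM called 2 members in the WT step from 24 to 72 h (19.6% of all genes) and changed no other count of members by over 1.5 times. Of the lists at WT 144 h it called 2 higher and 2 lower for base excision and for TET binding proteins. For O-GlcNAc cycling it called 1 and 1, and for the other CXXC genes 4 and 0 (22 and 16.7% of all genes). Blocking on the numbers across both lines took the call from Cxxc5 at DKO 72 h (0.36, adjusted p = 0.0503). Median-of-ratios scaling called 2 members for DKO against WT at 72 h (3.07% of all genes) and lost Tet2 at WT 144 h (adjusted p = 0.067), Cxxc5 at DKO 72 h (0.084) and Tet1 in the DKO step from 24 to 72 h (0.094). Without the filter, Ogt at WT 24 h (adjusted p = 0.064), Tet2 at WT 144 h (0.071) and Cxxc5 at DKO 72 h (0.062) lost their calls. A pseudocount of 0.1, a minimum mean of 5 TPM and a fit without the trend kept the side of the threshold of all 27 called changes.

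Leaving out each library in turn gave 3 to 4 called members at WT 24 h, 1 to 2 at WT 72 h, 2 to 4 at WT 144 h, 2 to 5 at DKO 24 h, 1 to 4 at DKO 72 h, 0 to 2 in the WT step from 24 to 72 h, 0 to 0 from 72 to 144 h and 0 to 2 in the DKO step. For DKO against WT it gave 1 to 1 at 0 h, 1 to 2 at 24 h, 1 to 1 at 72 h and 3 to 3 over the mean, and 0 to 0 for both differences in response. Cxxc5 at DKO 72 h had an adjusted p of 0.0503 without either WT 144 h library, so its call rested on the shared spread. The cause of the other losses was not tested, and with 2 libraries a group the left-out group rests on 1.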
